A study of Homo sapiens with 4 samples.

Results

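The genes described here are 10 markers used to define ovarian cancer stem cells, ALDH1A1, ALDH1A2, ALDH1A3, ALDH2, CD44, CD24, PROM1, KIT, LGR5 and NES. They were taken as every probe that is not a control spot and whose gene name on the array is one of these symbols. This gave 13 probes of 41000 on the array, for 10 genes of 29123. ALDH1A2, ALDH1A3 and ALDH2 each have 2 probes and every other gene has 1. On each array, between 10 and 12 of the 13 probes were well above background in the Ctrl channel and between 9 and 11 in the KO channel. All 10 genes passed the filter on dim probes, which keeps a probe seen above background in either channel on each array of some group.

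Cancer stem cells are the tumor cells that can renew themselves and seed a tumor again, and in EOC (epithelial ovarian cancer) they are isolated by surface proteins and by aldehyde dehydrogenase activity. ALDH1A1, ALDH1A2 and ALDH1A3 are the cytosolic enzymes that oxidize retinaldehyde to retinoic acid, and ALDH2 is the mitochondrial enzyme that clears acetaldehyde. CD44 is the receptor for hyaluronan, CD24 is a small mucin-type glycoprotein anchored to the membrane, and PROM1 (CD133) is a pentaspan protein of membrane protrusions. KIT (CD117) is the receptor tyrosine kinase for stem cell factor. LGR5 is a receptor for R-spondins that strengthens Wnt signaling, and NES (nestin) is an intermediate filament protein of progenitor cells.

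The cells were A2780s, a human EOC line long established in culture, and total RNA of knockout clones was hybridized against RNA of a mock-transfected A2780s control (Ctrl) on 2-color arrays. There were 2 GALNT3 KO clones, made with CRISPR/Cas9 and a repair plasmid that carried puromycin resistance until Cre excised it, and 2 GALNT3/T6 KO clones, in which a lentiviral shRNA against GALNT6 had been added to GALNT3 KO clones. By the labels mock-transfected Ctrl is the reference on all 4 arrays, but whether both groups were set against the same Ctrl RNA is not given in the sources used here. A difference between the groups therefore takes in any difference between their Ctrl RNAs. GALNT3 and GALNT6 encode transferases that start mucin-type O-glycosylation. Each clone was on an array of its own, so n = 2 clones per group, and the second selection goes together with the group. No Ctrl was hybridized against Ctrl, so every ratio against Ctrl leaves out the spread of Ctrl itself. Values are given as the log2 of KO over Ctrl unless they are called signals or intensities.

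The targeted genes were read first. GALNT3 gave log2 ratios of 0.13 and 0.24 on the GALNT3 KO arrays, where neither channel of its probe was well above background, so it checks nothing there. It gave 4.80 and 5.08 in the clones labelled GALNT3/T6 KO, where KO was the brighter channel. This direction goes against the label, so these clones are named by their label throughout. Every sign in the text takes the dyes from the labels, which give Cy3 to Ctrl and Cy5 to KO on all 4 arrays. The methods of the study speak of Ctrl in the reverse color and do not say which dye that was, and an array with the dyes the other way round would have all of its signs turned, GALNT3 included. GALNT6 stood at -0.47 and -0.38 on the GALNT3 KO arrays and at -0.66 and -0.69 in the clones labelled GALNT3/T6 KO. Both means were below Ctrl with limma (adjusted p = 0.0446 and 0.00335), the former in 8 of 16 alternative analyses. The groups differed by -0.25, with an interval of -0.54 to 0.05, which did not pass the test (adjusted p = 0.212). A lower GALNT6 RNA level with the shRNA than without it was therefore not shown. These are RNA values from 1 probe per gene. By Western blot, the study reported GALNT3 protein lost and GALNT6 protein raised in its GALNT3 KO clones. It reported GALNT6 protein fully lost in the selected GALNT3/T6 KO clones. All 4 arrays lay on 1 slide, no spot was saturated, and between 86.9% and 93.8% of spots were well above background in a channel. Over 27223 genes, which are not independent replicates, the arrays of a group correlated at r = 0.835 and 0.917, and arrays of different groups at 0.205 to 0.324. With so few arrays the precision is limited.

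Every value below comes from these 60-base probes, with coordinates as the files give them on hg19. The first 30 bases are shown for the probes of the genes that moved most or whose clones or probes disagreed.
CD44 (A_23_P24870, chr11:35250934-35250993, + strand): gggagctgggacacttaacagatgcaatgt
ALDH1A3 (A_23_P205959, chr15:101456503-101456562, + strand): atatagacactaaccttgatagtgatacgt
ALDH1A3 (A_24_P917280, chr15:101421497-101421556, + strand): gtagttttatttgtaatatcagcttcagag
NES (A_23_P103672, chr1:156638841-156638900, - strand): gcaaagggaatctcttgcctgctccatctc
CD24 (A_23_P85250, chrY:21152818-21152877, - strand): ctgcctcgacacacataaacctttttaaaa
ALDH1A1 (A_23_P83098, chr9:75516136-75516195, - strand): ggagagtacggtttccatgaatatacagag
Over the 13 probes the GC content ran from 35.0% to 48.3%. Among the 78 pairs of these probes, the longest run of bases shared by any pair was 9, between NES and ALDH2 probes. The file places the CD24 probe on chromosome Y, while RefSeq places the CD24 gene on chromosome 6, and CD24 has near-identical copies elsewhere in the genome. Its signal is therefore uncertain as to the copy.

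In GALNT3 KO, 2 of the 10 markers were lower than Ctrl and none was higher, also at an unadjusted p under 0.05. The lower genes were ALDH2, at 1.79-fold, and ALDH1A1, whose signal was too dim for a fold. ALDH1A1 passed the filter through the clones labelled GALNT3/T6 KO alone. Of all genes tested, 6.34% were called lower and 4.69% higher in this comparison, with limma and an adjusted p (Benjamini-Hochberg) no higher than 0.05, which makes 1726 and 1277 genes. With median centring in place of loess the same comparison gave 1777 genes lower and 545 higher, and of the markers ALDH2 alone kept its call. With either GALNT3 KO array left out, limma called 0 genes of any kind in this comparison (4689 and 3249 at an unadjusted p under 0.05), so each call in GALNT3 KO given below rests on both arrays. The median log2 ratio of the 10 markers was -0.01, against 0.02 over all genes.

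In the clones labelled GALNT3/T6 KO, 4 markers rose and 3 fell relative to Ctrl. ALDH1A3 rose 78.7-fold, CD44 44.0-fold, PROM1 1.52-fold and ALDH1A2 1.33-fold, the last called in 8 of 16 alternatives. NES fell to 32.4% of Ctrl, ALDH2 to 56.1%, and ALDH1A1 fell as well, by a ratio that is only a bound. CD24, KIT and LGR5 did not pass the test. Of all genes, 24.8% were called higher and 23.1% lower here, so 4 of 10 and 3 of 10 stand against a background that is itself high. The median of the markers was 0.40, against 0.03 over all genes. With the dyes as the labels give them, ALDH1A3 ranked 6 and CD44 ranked 25 from the highest among 27223 genes. With the signs turned, these would be their ranks from the lowest.

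Set against each other, the clones labelled GALNT3/T6 KO were higher than the GALNT3 KO clones for ALDH1A3 and CD44 and lower for NES, which makes 2 higher and 1 lower of 10. The background was 11.8% of genes called higher and 11.8% lower. The arrays of the 2 groups did not overlap for 8 markers, 6 higher and 2 lower in the clones labelled GALNT3/T6 KO. The 2 lower were NES and ALDH1A1, and the KO channel of ALDH1A1 was dim on every array. Among the 6 higher, the gap between the nearest arrays ran from 0.02 log2 units for KIT to 5.93 for ALDH1A3, with 0.10 for CD24. Over all genes measured on the 4 arrays, 30.0% were higher without overlap and 31.0% lower. ALDH2 and LGR5 were the markers whose groups overlapped.

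**Figure D1:**
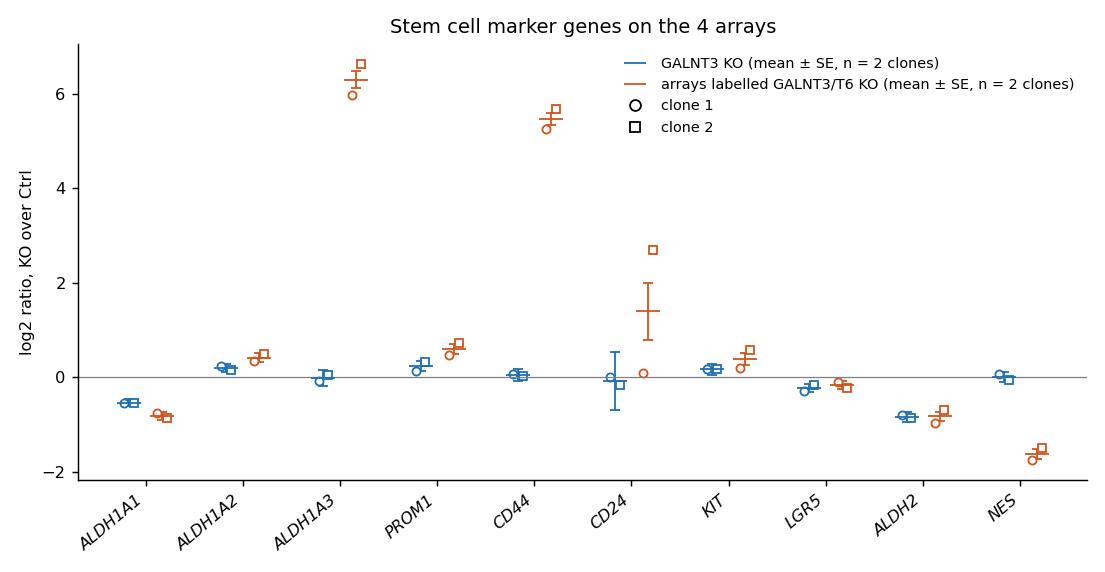
Log2 ratio of KO over Ctrl for each of the 10 marker genes, with open symbols for the single clones and horizontal bars for the group mean ± SE from limma (n = 2 clones). ALDH1A3 and CD44 stand between 5.24 and 6.63 in the clones labelled GALNT3/T6 KO and near 0 in GALNT3 KO, NES stands at -1.75 and -1.50 in the clones labelled GALNT3/T6 KO, and the 2 CD24 clones of that group stand apart at 0.09 and 2.69.

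**Figure D2:**
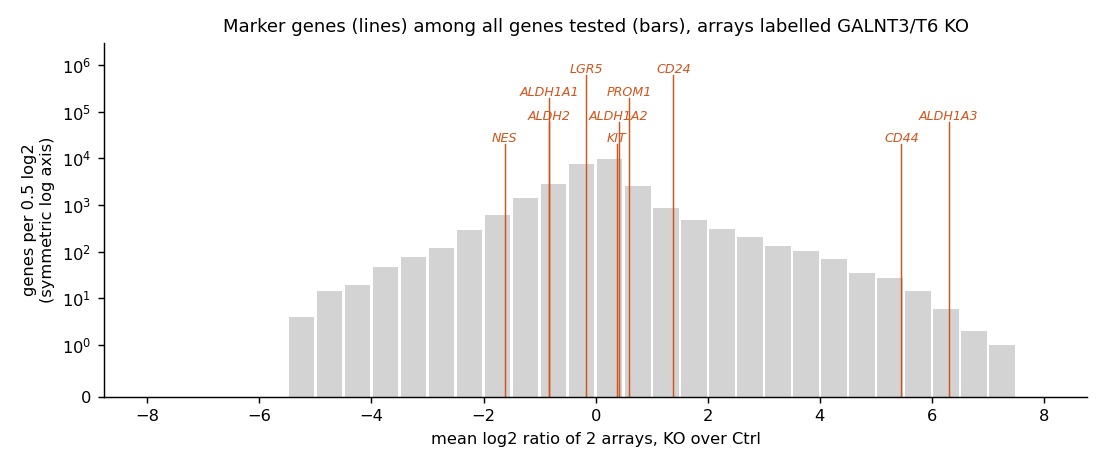
Bars count all 27223 genes by their mean log2 ratio in the clones labelled GALNT3/T6 KO, in steps of 0.5 on a symmetric log axis, and lines mark the 10 marker genes at their own mean. CD44 and ALDH1A3 lie in the sparse upper tail at 5.46 and 6.30, and the other 8 markers lie between -1.62 and 1.39, where most genes are.

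ALDH1A3 was the aldehyde dehydrogenase with the largest change. Its brighter probe gave -0.08 and 0.03 on the GALNT3 KO arrays and 5.96 and 6.63 in the clones labelled GALNT3/T6 KO. The groups lay 5.93 log2 units apart at their nearest arrays. Against Ctrl the means were -0.02 (SE 0.18, adjusted p = 0.936 from limma) and 6.30 (SE 0.18, adjusted p = 0.000101), and the groups differed by 6.32 (SE 0.25, adjusted p = 0.000464). The KO intensity of this probe was 196 and 310 in GALNT3 KO and 44816 and 103590 in the other clones. The Ctrl intensity was 258 and 455 against 1487 and 1093. Ctrl was thus brighter as well in the clones labelled GALNT3/T6 KO. Its extra signal there came to 0.839% of the KO signal, a share that a high ratio makes small in advance. The part of the brighter Ctrl channel in the ratio was not tested.

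The second ALDH1A3 probe, 35006 bases upstream by its start, moved in the same direction and by less. It gave -0.01 and 0.24 in GALNT3 KO, on the first of which it was dim in both channels, and 1.36 and 1.84 in the clones labelled GALNT3/T6 KO. Tested alone it rose by 1.60 on the latter (SE 0.15, adjusted p = 0.00132 over all probes). The file ties the brighter probe to a RefSeq transcript and the second to a single cDNA clone. Averaging both probes gave 3.95 for the gene, the lowest of its alternatives.

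ALDH1A1 and ALDH1A2 moved by far less. ALDH1A1 gave -0.54 and -0.54 in GALNT3 KO and -0.77 and -0.88 in the clones labelled GALNT3/T6 KO, so all 4 clones were below Ctrl. On no array was its KO channel well above background, and its Ctrl channel was so on 3 of 4. The fall was at least 1.42-fold in the clones labelled GALNT3/T6 KO, with measured mean signals of 7.06 log2 units in Ctrl and 6.24 in KO. In GALNT3 KO no bound is given, as Ctrl was well above background on 1 of 2 arrays only. The mean signals there were 6.95 in Ctrl and 6.41 in KO.

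limma gave adjusted p-values of 0.0336 and 0.00193 for ALDH1A1 against Ctrl. The gene passed the filter through the clones labelled GALNT3/T6 KO, since on the first GALNT3 KO array neither channel was well above background. No size is given for a difference between the groups, as the KO channel of both was dim. In GALNT3 KO the call did not hold without background correction (adjusted p = 0.0701), with Agilent's own log ratio (0.0681) and with median centring (0.145). It did not hold on 1 GALNT3 KO array either, at 0.282 without replicate 1 and 0.412 without replicate 2. Agilent's log ratio gave -0.94 and -2.32 against Ctrl.

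ALDH1A2 gave 0.24 and 0.15 in GALNT3 KO and 0.35 and 0.48 in the clones labelled GALNT3/T6 KO, above Ctrl in all 4 clones. The mean of 0.41 in the latter group passed the test (SE 0.09, adjusted p = 0.0173 from limma) and the mean of 0.20 in GALNT3 KO did not (adjusted p = 0.175). The difference of 0.22 had a 95% interval of -0.10 to 0.54. The rise in the clones labelled GALNT3/T6 KO was called in 8 of 16 alternatives. Agilent's log ratio gave 0.19 and no call (adjusted p = 0.204 from limma). Nor was it called with the second clone labelled GALNT3/T6 KO left out (0.0639) or with either GALNT3 KO array left out (0.0626). The second ALDH1A2 probe was dim in both channels on every array and gives no level.

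ALDH2 was lower than Ctrl in all 4 clones and to a like size in both groups. Its log2 ratio was -0.81 and -0.87 in GALNT3 KO and -0.98 and -0.69 in the clones labelled GALNT3/T6 KO, so the groups overlapped. The means were -0.84 (SE 0.10, adjusted p = 0.0259 from limma) and -0.83 (SE 0.10, adjusted p = 0.00382). Their difference was 0.01, with a 95% interval of -0.38 to 0.39.

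The intensities of ALDH2 were far above background, at 23376 to 31407 in Ctrl and 8355 to 18166 in KO over the 4 arrays. Its second probe, 243 bases away, gave -0.46 and -0.35 in GALNT3 KO and -0.60 and -0.59 in the clones labelled GALNT3/T6 KO. Both probes fell in both groups when tested alone, the second to -0.40 (adjusted p = 0.0488) and -0.59 (adjusted p = 0.00473). ALDH2 was not called in GALNT3 KO with Agilent's log ratio (-0.58, adjusted p = 0.0725), nor without either GALNT3 KO replicate (0.282 and 0.412).

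Of the other aldehyde dehydrogenases, 14 were measured. In GALNT3 KO 1 fell, ALDH16A1 by 0.48 (adjusted p = 0.0453), and none rose. In the clones labelled GALNT3/T6 KO, 3 rose and 5 fell. Counts of this and the later lists stand beside all genes, 4.69% higher and 6.34% lower in GALNT3 KO. In the clones labelled GALNT3/T6 KO these shares were 24.8% and 23.1%. ALDH1L2, the mitochondrial enzyme of folate metabolism, fell by 3.32 (SE 0.20, adjusted p = 0.000507), ALDH16A1 fell by 2.06 and ALDH3B1 rose by 1.49. Against GALNT3 KO, ALDH1L2 differed by -2.96 and ALDH5A1, which oxidizes succinic semialdehyde, by 1.30 (adjusted p = 0.0217). The median of the list was -0.09 in GALNT3 KO and -0.01 in the other clones.

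The genes that make, carry and read retinoic acid moved in both directions. Of 19 measured, 1 rose and 1 fell in GALNT3 KO, and 5 rose and 9 fell in the clones labelled GALNT3/T6 KO, with a median of -0.26 there. DHRS3, which reduces retinaldehyde back to retinol, rose by 3.17 on the latter (SE 0.12, adjusted p = 0.000157). RDH10, which oxidizes retinol to retinaldehyde, fell by 3.57 (SE 0.25, adjusted p = 0.000705), and the receptor RXRA fell by 2.52 (adjusted p = 0.00231). RARB, a retinoic acid receptor, rose by 1.14 in GALNT3 KO (SE 0.13, adjusted p = 0.0233) and differed by -3.18 between the clones labelled GALNT3/T6 KO and GALNT3 KO (SE 0.18, adjusted p = 0.000925). STRA6, the receptor for the retinol carrier of plasma, fell by 0.48 in GALNT3 KO.

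CD44 was the surface marker that moved most. It read 0.07 and 0.02 in the GALNT3 KO clones and 5.24 and 5.67 in the clones labelled GALNT3/T6 KO. Both clones of the latter group lay more than 5 log2 units above both GALNT3 KO clones. The mean was 5.46 (SE 0.13, adjusted p = 9.21e-05 from limma) against Ctrl and 0.04 (SE 0.13, adjusted p = 0.823) in GALNT3 KO, where the 95% interval ran from -0.29 to 0.38. The difference between the groups was 5.41 (SE 0.18, adjusted p = 0.000419), or 42.7-fold.

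The CD44 probe is printed on 10 spots of each array, which shows the technical error within an array. The SD over these spots was 0.20 and 0.24 on the GALNT3 KO arrays and 0.31 and 0.33 in the clones labelled GALNT3/T6 KO. The lowest spot of the latter group stood at 4.68 and the highest spot of GALNT3 KO at 0.31, so no spot of one group came near the other. All 10 spots were well above background in both channels on every array. The spots of 1 array share an RNA and are not replicates of the condition.

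The single channels of CD44 moved unequally. The median KO intensity over the spots was 173 and 218 on the GALNT3 KO arrays and 26907 and 92626 in the clones labelled GALNT3/T6 KO. The median Ctrl intensity was 242 and 292 on the former and 1310 and 1631 on the latter, so Ctrl was also brighter there. After normalization Ctrl was 2.21 log2 units brighter and KO 7.63 units brighter, and the extra Ctrl signal came to 1.78% of the KO signal. Over the 156 genes that were at least 16-fold higher on these arrays the median of that share was 2.14%. The share cannot exceed Ctrl over KO, so a high ratio makes it small in advance, and these genes are no benchmark. What part the brighter Ctrl channel has in the ratio was not tested.

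**Figure D3:**
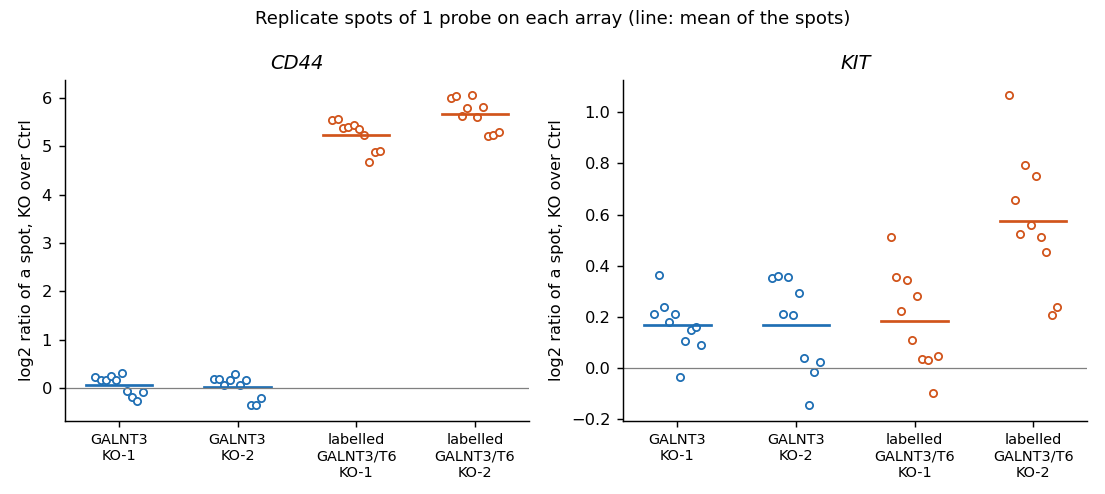
Log2 ratio of KO over Ctrl at each replicate spot of the CD44 probe and of the KIT probe on the 4 arrays, spread sideways for legibility, with a line at the mean. The CD44 spots of the clones labelled GALNT3/T6 KO lie at 4.68 or more and those of GALNT3 KO at 0.31 or less, while the KIT spots of all 4 arrays overlap.

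Among 15 measured genes of CD44 ligands, hyaluronan enzymes and splicing factors, 3 fell and none rose in GALNT3 KO, and 3 rose and 3 fell in the clones labelled GALNT3/T6 KO. SPP1 (osteopontin, a secreted ligand of CD44) had a log2 ratio of -1.86 in GALNT3 KO (SE 0.08, adjusted p = 0.00566) and of -1.48 in the clones labelled GALNT3/T6 KO (SE 0.08, adjusted p = 0.000402). EZR (ezrin, which links membrane proteins such as CD44 to actin) fell by 0.96 in GALNT3 KO (adjusted p = 0.0495) and rose by 1.66 on the others (adjusted p = 0.00319). The groups differed by 2.62 for EZR (SE 0.28, adjusted p = 0.00443) and by 1.59 for HMMR, a second hyaluronan receptor that fell by 1.02 in GALNT3 KO. SRSF1, a splicing factor, fell by 0.95 in the clones labelled GALNT3/T6 KO. The list had a median of -0.20 in GALNT3 KO and of -0.06 in the other clones.

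CD24 was the marker on which the clones of a group disagreed. It gave -0.01 and -0.16 in GALNT3 KO, 0.09 in the first clone labelled GALNT3/T6 KO and 2.69 in the second. Both channels were well above background on every array, with KO intensities of 357, 361, 383 and 4974 in that order and Ctrl intensities of 464, 593, 624 and 773. The high value is a single clone measured at a single spot. A gap between the 2 clones labelled GALNT3/T6 KO as large as its 2.59 log2 units was seen in 0.022% of all genes, where the median gap was 0.17.

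The mean of CD24 in the clones labelled GALNT3/T6 KO was 1.39 and did not pass the test (SE 0.61, adjusted p = 0.121 from limma), with a 95% interval of -0.20 to 2.98. Without the first of these arrays the remaining one stood at 2.69 with an adjusted p of 8.68e-07, a fit in which the lone array was assumed to vary like the GALNT3 KO arrays. Without the second the value was 0.09.

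PROM1 was above Ctrl in all 4 clones, at 0.14 and 0.32 in GALNT3 KO and at 0.48 and 0.73 in the clones labelled GALNT3/T6 KO. The rise to 0.60 in the latter passed the test (SE 0.11, adjusted p = 0.0107 from limma), and the 0.23 of GALNT3 KO did not (adjusted p = 0.194). With Agilent's log ratio the rise was 0.35 and still called (adjusted p = 0.0482). The groups differed by 0.37, with a 95% interval of -0.02 to 0.77. The signals of PROM1 went the other way between the groups. After normalization Ctrl was at 9.25 and 9.16 log2 units on the GALNT3 KO arrays and at 7.97 and 7.96 on the others, and KO was at 9.38 and 9.48 against 8.45 and 8.68. The ratio was higher in the clones labelled GALNT3/T6 KO while both of its channels were dimmer.

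**Figure D4:**
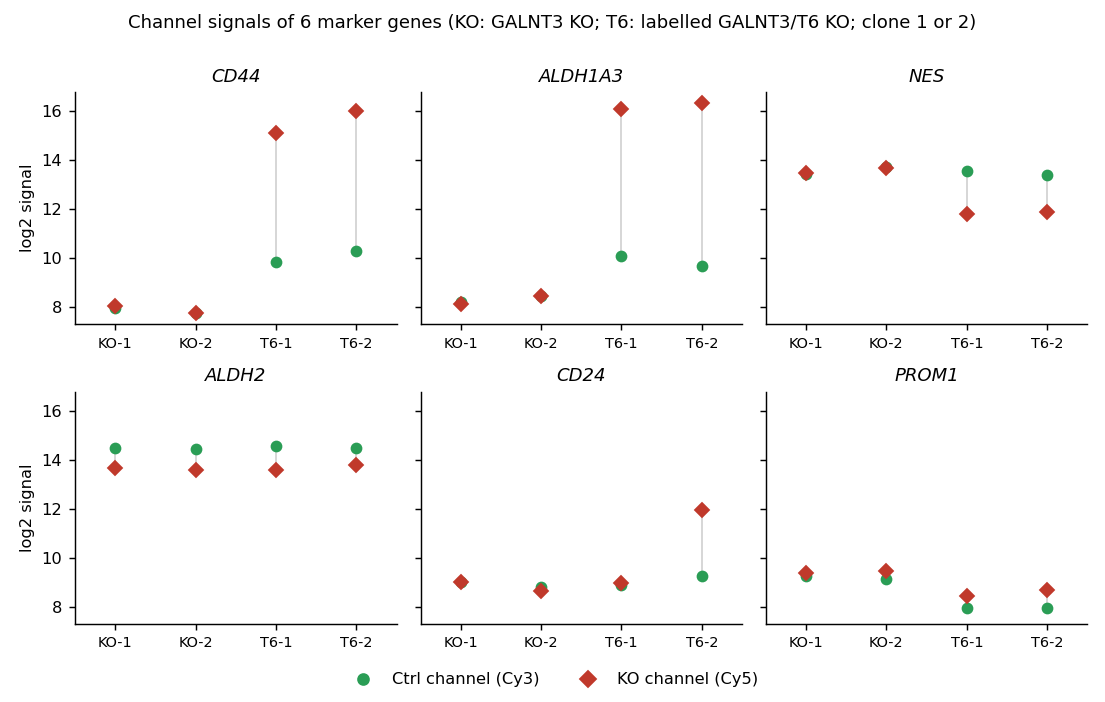
Normalized log2 signal of the Ctrl channel (circles) and the KO channel (diamonds) for 6 marker genes on the 4 arrays, joined by a line that is the log2 ratio. CD44 and ALDH1A3 rise in both channels in the clones labelled GALNT3/T6 KO, most of all in KO, NES falls in KO alone, ALDH2 is lower in KO on all 4, CD24 parts on 1 array, and PROM1 is dimmer in both channels.

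KIT was above Ctrl in all 4 clones and did not pass the test. It gave 0.17 and 0.17 in GALNT3 KO and 0.18 and 0.58 in the clones labelled GALNT3/T6 KO. Its probe also has 10 spots per array, with SDs of 0.11, 0.18, 0.19 and 0.26 in that order, and 8 to 10 of them were well above background. The mean of 0.38 in the latter group had an adjusted p of 0.0546 (SE 0.12, limma) and a 95% interval of 0.07 to 0.69. It passed the threshold with Agilent's log ratio (0.52, adjusted p = 0.0444), and with the first clone of the group left out (0.58, adjusted p = 0.00731). The difference between the groups was 0.21, with an interval of -0.23 to 0.66.

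Of 17 genes of KIT ligand and signaling, 2 rose and 1 fell in GALNT3 KO, and 6 rose and 4 fell in the clones labelled GALNT3/T6 KO. KITLG, the ligand of KIT, rose by 1.12 on the latter (SE 0.20, adjusted p = 0.011). FYN, a Src family kinase, rose by 2.28 (SE 0.08, adjusted p = 0.000136), and ETV1, a transcription factor downstream of KIT in other tumors, fell by 1.62 (adjusted p = 0.00224). MITF fell by 1.33 in GALNT3 KO (SE 0.08, adjusted p = 0.00885) and was 1.70 log2 units higher in the other clones than there (adjusted p = 0.00144). SHC1 and SOCS6 rose in GALNT3 KO by 0.80 and 0.70. The median of the list was -0.10 in GALNT3 KO and 0.26 in the clones labelled GALNT3/T6 KO.

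LGR5 was dim and did not pass the test in any comparison. It gave -0.29 and -0.17 in GALNT3 KO and -0.09 and -0.24 in the clones labelled GALNT3/T6 KO, below Ctrl in all 4 clones and with overlapping groups. Its Ctrl channel was well above background on all 4 arrays, with intensities of 136 to 204, and its KO channel on 1 of them. In GALNT3 KO the KO channel was dim on both arrays, and the fold from the bound was 1.17, close to the measured ratio. It does not establish a fall, as the interval of the mean ran from -0.46 to 0.002. The means were -0.23 (adjusted p = 0.143 from limma) and -0.17 (adjusted p = 0.181), and the difference of 0.06 had an interval of -0.26 to 0.39.

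Of 15 measured genes of LGR5 partners and R-spondins, 1 rose and 3 fell in GALNT3 KO, 2 rose and 5 fell in the clones labelled GALNT3/T6 KO, and 6 were lower and none higher on the latter than in GALNT3 KO. FZD7, a Wnt receptor, stood at -2.53 in GALNT3 KO (SE 0.09, adjusted p = 0.00501) and at -4.36 in the clones labelled GALNT3/T6 KO (SE 0.09, adjusted p = 9.21e-05). TNFRSF19 (TROY), a Wnt target found in LGR5 stem cells of the gut, stood at -1.59 and -3.93 in the same order, both called. The R-spondin RSPO2 rose by 1.16 in GALNT3 KO (adjusted p = 0.013), and the co-receptor LRP6 fell by 1.74 in the clones labelled GALNT3/T6 KO (adjusted p = 0.00137). The median of the list went from 0.12 in GALNT3 KO to -0.13 in the clones labelled GALNT3/T6 KO.

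NES was the marker with the largest fall. Its log2 ratio was 0.08 and -0.07 in GALNT3 KO and -1.75 and -1.50 in the clones labelled GALNT3/T6 KO, with 1.43 log2 units between the nearest arrays of the groups. The means were 0.00 (SE 0.10, adjusted p = 0.976 from limma) and -1.62 (SE 0.10, adjusted p = 0.000543). The groups differed by -1.63 (SE 0.15, adjusted p = 0.00281). Without GALNT3 KO replicate 1 or 2 the adjusted p of this difference was 0.0636 or 0.0553, with values of -1.56 and -1.70.

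The change of NES lay in the KO channel. The KO intensity was 8119 and 9303 in GALNT3 KO and 2304 and 4845 in the clones labelled GALNT3/T6 KO. The Ctrl intensity was 11257 and 17821 against 16272 and 14400, and after normalization the Ctrl signals of the groups differed by -0.09 log2 units and the KO signals by -1.72.

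Of the 9 neural and muscle intermediate filament genes measured beside NES, 0 passed the test in GALNT3 KO (3 at an unadjusted p under 0.05, limma), and 3 rose and 4 fell in the clones labelled GALNT3/T6 KO. NEFH (the heavy neurofilament chain) fell by 4.56 (SE 0.26, adjusted p = 0.000411). VIM (vimentin, a filament partner of nestin) fell by 2.36 (SE 0.24, adjusted p = 0.00206), and SYNM (synemin) fell by 1.27. Against GALNT3 KO, VIM differed by -3.48 (SE 0.34, adjusted p = 0.00357), and GFAP, the filament of astrocytes, by 0.90. The median of the list was 0.06.

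Other surface and efflux markers used for ovarian tumor-initiating cells rose without any fall in the clones labelled GALNT3/T6 KO, 13 of 21 measured, with a median of 0.59. CD9, a tetraspanin, fell by 1.07 in GALNT3 KO (SE 0.09, adjusted p = 0.0132) and rose by 3.25 in the clones labelled GALNT3/T6 KO (SE 0.09, adjusted p = 9.74e-05). ITGA6, the laminin receptor chain, rose by 2.44 and ABCG2, the drug efflux pump of side population cells, by 2.42 (adjusted p = 0.000521 and 0.000191). In GALNT3 KO 2 of the 21 rose, CD55 by 0.88 and ROR2 by 0.90, and CD9 fell.

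Of 14 measured pluripotency and self-renewal factors, 1 rose in GALNT3 KO and none fell, and 2 rose, 5 fell and 7 did not pass the test in the clones labelled GALNT3/T6 KO, with a median of -0.09. SOX2, a core pluripotency factor, rose by 2.17 in GALNT3 KO (SE 0.13, adjusted p = 0.00885) and differed by -2.06 between the other clones and these (adjusted p = 0.00311). HEY1, a Notch target, fell by 3.78 in the clones labelled GALNT3/T6 KO, SALL4 fell by 2.27 and MYC fell by 1.59 (adjusted p = 0.000423, 0.000284 and 0.000986). All lists were chosen with results of these arrays known, and their counts stand beside those of all genes in the same comparison. These were 4.69% higher and 6.34% lower in GALNT3 KO, 24.8% and 23.1% in the clones labelled GALNT3/T6 KO, and 11.8% and 11.8% for the difference between the groups.

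**Figure D5:**
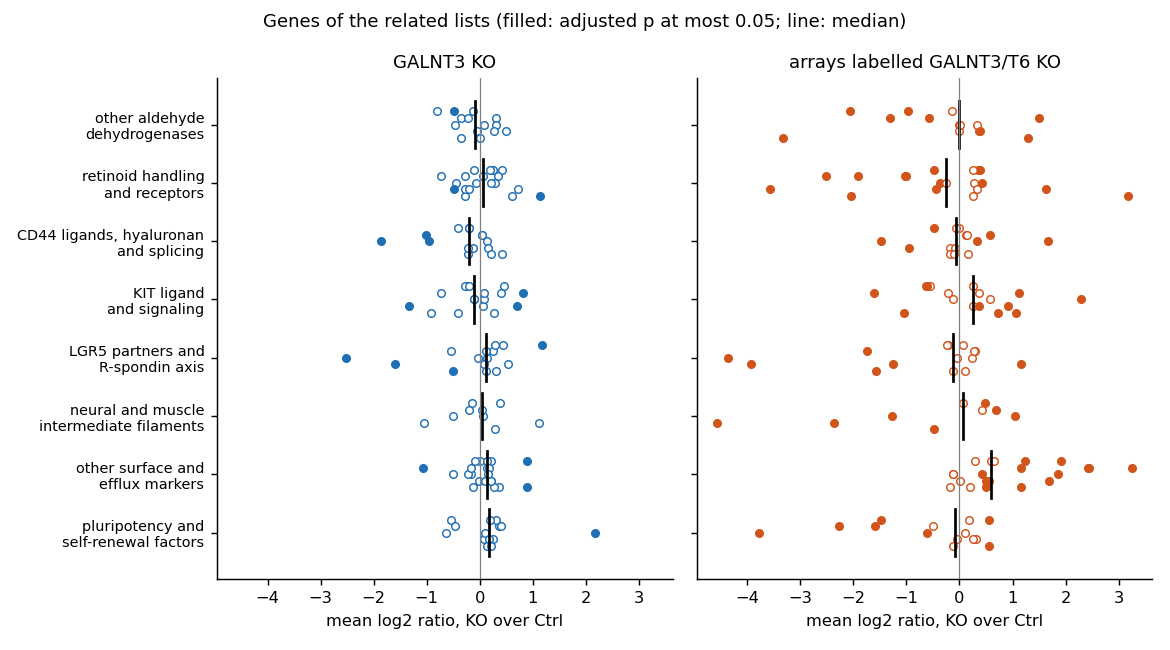
Mean log2 ratio of KO over Ctrl for the genes of 8 related lists in GALNT3 KO (left) and in the clones labelled GALNT3/T6 KO (right), on a shared axis, with filled points for an adjusted p of at most 0.05 and a line at the median of each list. The other surface and efflux markers lie mostly to the right of 0 in the clones labelled GALNT3/T6 KO, with 13 of 21 called higher, and the other lists spread to both sides.

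The cell line was read against cell type markers as well. Of 10 epithelial ovarian tumor markers, 9 or 10 were well above background in each channel of each array, as were 86.9% to 93.8% of all spots. In the clones labelled GALNT3/T6 KO, 8 of 10 rose and none fell, beside 24.8% of all genes called higher and 23.1% lower. In GALNT3 KO 0 passed the test (2 at an unadjusted p under 0.05, limma), beside 4.69% higher and 6.34% lower. Their summed signal was 13.1 to 13.2 log2 units in Ctrl and 13.3 to 13.5 in KO on the GALNT3 KO arrays, and 15.1 to 15.5 in Ctrl and 19.8 to 19.9 in KO on the others. The rise of CD44 and ALDH1A3 and the fall of NES thus came on the same arrays as a rise of epithelial markers, and the part of these markers in the result was not tested.

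Of 8 blood cell markers, which are leukocyte markers and the red cell gene HBB, 7 or 8 were well above background. Of all spots, 86.9% to 93.8% were so in a channel, so such counts do not set these markers apart from other genes. The summed signals of the 8 markers were 12.7 to 12.9 in Ctrl and 12.98 to 13.22 in KO over the 4 arrays. Of the 7 tested, 3 rose and 1 fell in the clones labelled GALNT3/T6 KO. Of the endothelial markers, 3 or 4 of 5 were well above background, PECAM1 on no array, and 3 of the 4 tested rose on these arrays. Of 6 fibroblast markers, 5 or 6 were well above background, and 2 rose and 3 fell there. Of all genes, 24.8% were called higher and 23.1% lower in that comparison. The part of these cell type markers in the marker genes' values was not tested. Fewer cells of a kind and less RNA per cell cannot be told apart in RNA of whole cultures.

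For the 3 genes that separated the groups, the 250 bases before the annotated start are given from RefSeq (GRCh38.p14), in the direction of the gene, to show what sequence lies there. Capitals mark each GC box (GGGCGG on either strand).
CD44 promoter (chr11:35138921-35139170, + strand): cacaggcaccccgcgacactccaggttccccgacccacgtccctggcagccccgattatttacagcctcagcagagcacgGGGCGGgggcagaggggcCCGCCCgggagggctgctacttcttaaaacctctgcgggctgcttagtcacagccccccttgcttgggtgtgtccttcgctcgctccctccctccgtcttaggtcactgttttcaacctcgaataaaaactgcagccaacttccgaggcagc
ALDH1A3 promoter (chr15:100879581-100879830, + strand): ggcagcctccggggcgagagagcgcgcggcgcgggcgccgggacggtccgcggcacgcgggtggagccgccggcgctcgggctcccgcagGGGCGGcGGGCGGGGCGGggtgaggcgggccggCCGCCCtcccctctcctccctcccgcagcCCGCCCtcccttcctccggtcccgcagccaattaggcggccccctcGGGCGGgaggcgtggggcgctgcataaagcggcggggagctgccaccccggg
NES promoter (chr1:156677408-156677657, - strand): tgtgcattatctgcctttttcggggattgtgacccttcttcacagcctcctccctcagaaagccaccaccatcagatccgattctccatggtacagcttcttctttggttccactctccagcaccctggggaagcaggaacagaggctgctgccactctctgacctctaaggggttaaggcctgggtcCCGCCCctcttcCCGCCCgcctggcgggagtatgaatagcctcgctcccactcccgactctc
The ALDH1A3 window held 6 GC boxes, of which 1 pair overlaps by a base, and the CD44 and NES windows held 2 each. A GC box was found in 42.6% of the 35116 windows of all genes and in 8 of the 14 windows listed for 8 of the marker genes. TATAAA was found in 10.72% of all windows and in none of the 14, CCAAT in 32.0% and in 5, TGANTCA (the AP-1 motif) in 6.6% and in 1, and AGGTCA (a nuclear receptor half-site) in 12.1% and in 2. Both half-sites lie in the windows of CD44 and NES, a gene that rose and a gene that fell. ALDH1A3 had 82.4% GC in its window, CD44 62.4% and NES 58.0%. These letters describe the windows and say nothing of a factor that binds there.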

How the data were processed

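The 10 markers and every list were chosen with earlier results of these data known. The authors hybridized 4 Agilent 44K arrays, each with Ctrl RNA in Cy3 and KO RNA in Cy5 per the labels, which name no dye swap. The study's methods mention a reverse color for Ctrl and leave its dye open, so the direction rests on the labels. They extracted the deposited spot intensities with Agilent Feature Extraction (10.7.3.1 in the file headers, 8.5.1.1 in the submitters' processing notes). The deposited log ratio is log10 of red over green per the file headers, and the deposited value table holds it rounded. Mean intensities were background-corrected with normexp (offset 50) and normalized by loess within arrays, and spots of a probe were averaged without flagged outliers, to log2 ratios. The same deposited log10 values, turned to log2, served as an alternative.

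A probe was detected where at least 0.5 of its spots were well above background. Each gene was read from the brightest of its probes that, in some group, were detected in either channel on each array, and 27223 genes remained. limma (3.58.1, R 4.3.3) fitted all 4 arrays with a mean per group, with Benjamini-Hochberg adjustment over all genes, and was tested on simulated data. Intervals are 95%. Genes named beside the markers are, for each list and comparison, at most the 3 called with the largest absolute mean. Where a channel was dim on both arrays of a group and the other channel on neither, the fold is a bound. It comes from the bright mean and, per array, either the floor or the dim signal, whichever was higher (loess, then Aquantile, with dye bias possible). Replicates are clones. Alternatives were the background correction, the scaling, the probe rule, the filter, the spread, a replicate block, each array left out, the study's fold criterion and the methods' t-test.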

Additional observations from a re-analysis of the deposited data

Results flagged for a closer look

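For 3 markers limma's test called the difference of the groups itself, as the clones labelled GALNT3/T6 KO minus GALNT3 KO. ALDH1A3 was higher by 6.32 log2 units (adjusted p = 0.000464) and CD44 by 5.41 (adjusted p = 0.000419), in both clones of the group. NES differed by -1.63 (adjusted p = 0.00281), lower in both clones. The GALNT3 probe goes against the label in the same clones, at 4.80 and 5.08.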

How the results depend on the processing

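Over all alternatives, the markers gave 422 values on the same side of the threshold as reported, 33 that lost a call, 9 that gained one and none called that changed sign. The 422 take in results that were not called and stayed so, and the deposited values repeat Agilent's log ratio in rounded form. In GALNT3 KO against Ctrl, ALDH1A1 was called in 7 of 15 alternatives and ALDH2 in 10 of 16. For GALNT3 KO against Ctrl, the 2 markers called became 1 without background correction, with median centring, with probes well above background in both channels on all arrays and with an unadjusted p of at most 0.05 and 1.5-fold, and 0 with the deposited table, Agilent's log ratio and the methods' t-test. Leaving out single arrays gave 0 to 2 markers in that comparison, 6 to 9 in the clones labelled GALNT3/T6 KO (7 reported) and 2 to 4 for the difference (3 reported). The methods' t-test gave 0 markers in these latter comparisons too (3, 4 and 4 in the comparisons at an unadjusted p under 0.05), and after adjustment 0, 1 and 33 of all genes (3994, 5691 and 6766 unadjusted), against 3003, 13020 and 6439 with limma. Where a group was left with a lone array, limma assumed that it varied like the other group.

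Whether same-numbered clones share a parent clone is not given in the sources used here. Their deviations correlated at r = -0.239 over genes. The sign of that value turns with the numbering of the clones in a group, so it cannot decide whether any clones are paired. With a replicate block the GALNT3 KO count fell from 2 to 0 markers and from 3003 to 82 genes, and the other comparisons gave 6 and 3 markers. A crossed block, chosen after seeing the data, gave 2, 8 and 3 markers. For all genes in GALNT3 KO, the counts were 590 with Agilent's log ratio and 585 with the deposited values, 9435 with the spread of the group's own arrays and 0 to 9435 with single arrays left out. In the clones labelled GALNT3/T6 KO, the group's own spread gave 8281, the study's criterion 8665 and leaving out single arrays 8281 to 12923. For the difference, leaving out single arrays gave 1209 to 8928. CD44 and ALDH1A3 in the clones labelled GALNT3/T6 KO lost their calls with the methods' t-test alone. ALDH1A1 and LGR5 lie near background, which limits their ratios.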
